A study of Mus musculus with 6 samples.

Results

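A set of 8 transcription factors that pattern the mesenchyme of the skull and of the limb, *Prrx1*, *Prrx2*, *Alx1*, *Alx4*, *Shox2*, *Six2*, *Tbx18* and *Zic1*, were examined in cultured mouse calvarial preosteoblasts. They were taken by symbol from the deposited table, and all 8 were found among its 17001 rows, each with a value in all 6 libraries. The libraries were made from poly(A) RNA of preosteoblasts from 3-day-old mice, grown in α-MEM with fetal bovine serum. There were 3 control libraries (genotype NELL2 fx/fx) and 3 cKO libraries (genotype Col1-cre; NELL2 fx/fx), so that both groups carry the floxed allele and only the second carries Cre. Cre was driven by a fragment of the mouse *Col1a1* promoter, which is active in the osteoblast lineage, and other cells of the calvaria keep an intact floxed gene. The question was whether the level of these factors differed with the deletion of NELL2, a secreted glycoprotein. The labels do not say whether the libraries came from separate animals or cultures, so the p-values measure the spread between these libraries, which may be technical in part.

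The calvaria forms from mesenchyme of neural crest and mesodermal origin, and the sutures between its bones keep undifferentiated cells that feed bone growth. Where a mesenchymal cell lies in the head or limb is recorded in the transcription factors it expresses, and many of them stay expressed in culture. PRRX1, PRRX2, ALX1, ALX4 and SHOX2 carry a homeodomain of the paired class, whose binding sites contain the letters TAAT. SIX2 is a homeodomain protein that works with EYA cofactors, TBX18 is a T-box factor, and ZIC1 is a zinc-finger factor. In people, mutations of the genes for ALX4, ALX1 and ZIC1 are known from parietal foramina, frontonasal dysplasia and coronal craniosynostosis.

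All 8 genes are protein-coding in GENCODE release M21 on GRCm38, the build named in the submitters' processing notes, although the annotation release used for the table is not given in the sources used here. *Prrx1* lies on chromosome 1 from 163245119 to 163313710 on the minus strand. *Prrx2* lies on chromosome 2 from 30834972 to 30881251 on the plus strand, and *Alx4* on the same chromosome and strand from 93642384 to 93681339. *Alx1* lies on chromosome 10 from 102998707 to 103030215, *Shox2* on chromosome 3 from 66971727 to 66981771 and *Six2* on chromosome 17 from 85684277 to 85688274, all on the minus strand. *Tbx18* and *Zic1* share chromosome 9 and the minus strand, from 87702800 to 87731260 and from 91358058 to 91365810. A gene-level value does not separate the isoforms of *Prrx1*, for which the annotation lists 3 protein-coding transcripts.

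The promoters of 3 factors are shown because they carry the contrasts that follow: *Prrx1* and *Shox2*, whose cKO values lay on opposite sides of the control values, and *Six2*, which holds a double TAAT site. Each is the RefSeq promoter of GRCm38.p6, 300 bases from 250 before to 50 after the gene's start, written 5′ to 3′ on the strand of the gene, at chr1:163313601-163313900, chr3:66981722-66982021 and chr17:85688205-85688504, with TAAT on either strand in capitals.
Prrx1: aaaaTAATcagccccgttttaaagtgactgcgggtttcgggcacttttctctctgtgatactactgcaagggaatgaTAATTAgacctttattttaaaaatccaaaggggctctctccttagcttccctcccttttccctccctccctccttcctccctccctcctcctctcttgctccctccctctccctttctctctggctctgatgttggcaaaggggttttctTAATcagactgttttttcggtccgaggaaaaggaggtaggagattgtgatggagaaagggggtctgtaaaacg
Shox2: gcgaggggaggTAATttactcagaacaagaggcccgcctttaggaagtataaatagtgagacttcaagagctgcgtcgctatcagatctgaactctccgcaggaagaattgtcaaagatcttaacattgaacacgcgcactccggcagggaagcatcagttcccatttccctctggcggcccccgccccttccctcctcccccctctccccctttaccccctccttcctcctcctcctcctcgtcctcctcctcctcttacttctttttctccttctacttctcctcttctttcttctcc
Six2: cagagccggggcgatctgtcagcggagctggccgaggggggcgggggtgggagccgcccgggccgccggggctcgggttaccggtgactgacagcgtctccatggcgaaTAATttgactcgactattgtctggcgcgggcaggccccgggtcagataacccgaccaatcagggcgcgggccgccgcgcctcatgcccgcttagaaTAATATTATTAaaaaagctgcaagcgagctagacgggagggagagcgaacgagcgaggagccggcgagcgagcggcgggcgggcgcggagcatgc

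The RefSeq promoter table held 6 of the 8 genes, all but *Alx1* and *Alx4*. TAAT was found, on either strand and counting overlapping matches, 4 times in the promoter of *Prrx1*, 4 times in that of *Six2*, 2 times in that of *Tbx18* and 1 time in that of *Shox2*. It was not found in the windows of *Prrx2* and *Zic1*, and 58.0% of the 32851 promoters in the table hold it. The spaced pair TAATNNNATTA, the arrangement that dimers of paired-class homeodomains bind, was found in the promoter of *Six2* alone among the 6, and in 0.487% of all promoters. The TATA box TATAAA was found in the promoter of *Shox2* and in 13.6% of all promoters. The promoters also differed in base composition, from 47.7% G and C with 6 CpG dinucleotides in *Prrx1* to 70.3% with 28 in its relative *Prrx2*, where the median of all promoters was 52.7% with 7. The pair spans 3 of the 4 TAAT matches of *Six2*, of which 2 overlap each other. The E box CANNTG was found 1 time each in *Tbx18* and *Zic1* and in 72.3% of all promoters. These matches describe letters in a window and not occupied sites.

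Levels are given in FPKM, in which the fragments of a gene are divided by its transcript length and by the mapped fragments of the library. Library totals ran from 573306.64 to 606428.33 FPKM. The read depth behind them is unknown, so no counting error can be given. *Nell2*, the deleted gene, was at 3.17, 2.59 and 1.88 FPKM in control replicates 1, 2 and 3 and at 5.64, 1.61 and 5.74 in the libraries labelled cKO (adjusted p = 0.591 from limma), so the deletion was not visible at gene level and directions follow the labels. The study reports the deletion in calvarial preosteoblasts from quantitative PCR and western blotting, and does not say whether the sequenced cultures were among those checked. The osteoblast markers *Col1a1* and *Col1a2* were at 7484.07 FPKM or more in every library and *Sp7* at 10.31 or more. RNA of genes listed as markers of other cell types was also found. The 5 epithelial markers summed to 5.81 to 16.3 FPKM in control and 24.2 to 46.2 in cKO libraries. Of 4 tested, 3 were higher at an unadjusted p under 0.05, against 5.37% of all tested rows. *Epcam* was listed at 0 in control replicate 1. The 6 meningeal markers summed to 48.0 to 76.3 in control and 81.2 to 96.8 in cKO libraries, mostly through *Crabp2*, while *Slc6a13* and *Slc22a6* were at or near 0. Among the 4 tested, 1 (*Crabp2*) was higher at an unadjusted p under 0.05, against 5.37% of all tested rows, and 0 were lower. In estimate 3 were higher, with *Ptgds* nearly level at 0.02, and 1, *Cldn11*, was lower (-0.56). Of the 9 osteoblast markers, 4 (*Sp7*, *Alpl*, *Ibsp* and *Bglap*) were lower in cKO libraries at an unadjusted p under 0.05, against 7.76% of all tested rows. Over the 9, 6 had a lower estimate and 3 (*Spp1*, *Col1a2* and *Sparc*) a higher one. The 6 cartilage markers summed to 85.0 to 146 in control and 124 to 160 in cKO libraries. Of 5 tested, 2 were higher at an unadjusted p under 0.05, against 5.37% of all tested rows. In all, 4 of the 5 had a higher estimate and 1, *Hapln1*, a lower one (-0.27) with no overlap. The summed markers of dermal fibroblasts, macrophages, endothelium, muscle and neural tissue overlapped between the groups. So did the 3 suture mesenchyme markers, at 75.9 to 94.0 in control and 71.9 to 78.3 in cKO libraries, mostly *Twist1*. The 2 tested, *Axin2* and *Twist1*, had lower estimates, and 1 (*Axin2*, -0.29) had an unadjusted p under 0.05, against 7.76% of all tested rows. *Gli1* was at 0.05 to 0.25 FPKM and was not tested. Whether cells of these other types were present, and their part in the results, was not tested. In RNA from a whole culture, fewer cells of a type and less RNA per cell cannot be told apart. Y-linked genes were expressed in 1 control library and 2 cKO libraries, which does not separate the groups. The 4 genes summed to 0.01, 0.29 and 54.74 FPKM in control and 52.84, 0.01 and 49.57 in cKO libraries. The libraries of a group thus did not all come from the same animal, although those alike in Y-linked expression may have.

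The library labelled cKO replicate 2 stood apart in factors of the jaw and lower face. *Barx1*, a homeobox gene of jaw mesenchyme, was at 13.73 FPKM there and between 0.1 and 0.53 in the other 5 libraries. *Nkx3-2*, which marks the jaw joint region, was at 4.14 against 0.09 to 0.64, and *Gsc* at 4.77 against 1 to 1.61. *Pitx1* and *Hand2* were at 1.31 and 0.29 and were listed at 0 in each of the other 5. The 14 listed genes of this kind found in the table summed to 56.2 FPKM in cKO replicate 2 and to between 11.7 and 21.6 in the others. This list was drawn up after the values were seen, and results that rest on cKO replicate 2 are therefore given with and without it. *Pitx1* and *Hand2* are also in the list of limb factors used below, and *Dlx5* and *Dlx6* in that of skull and suture factors.

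The 8 factors spanned a wide range of levels, and all passed the filter of 1 FPKM in at least 3 libraries, since each exceeded 1 FPKM in every library. *Prrx2* and *Prrx1* were the most abundant, with means over the 6 libraries of 179.7 and 145.0 FPKM, above those of 97.3% and 96.7% of the rows in the table. *Zic1* followed at 40.7, *Six2* at 24.3, *Alx4* at 17.3 and *Alx1* at 6.92. *Tbx18* and *Shox2* were the lowest at 3.99 and 3.95, close to the middle of the table, with 47.1% and 46.9% of rows below them. FPKM is scaled by length, so these levels can be set side by side as far as the reads belong to the gene. Another gene on the opposite strand covers 6355 of 7060 exonic bases of *Alx4* and 1984 of 5693 of *Zic1*. The strand setting of the counting is unknown, so the levels of *Alx4* and *Zic1* are less certain.

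The order was taken from these means, so it is described here without a test. Within libraries, the 5 steps from *Prrx2* down to *Alx1* each held in 6 of 6, with the smallest mean difference between *Prrx2* and *Prrx1* at 0.30 ± 0.22 on the log2(FPKM + 1) scale (SD, n = 6). *Alx1* exceeded *Tbx18* in 4 of 6 libraries, by 0.60 ± 0.71 (SD, n = 6), and *Tbx18* exceeded *Shox2* in 4 of 6, by 0.05 ± 0.36 (SD, n = 6), so these neighbours do not differ beyond their spread over the 6 libraries. The exceptions were all cKO libraries. In each of the 3 controls *Alx1* stood above *Tbx18* and *Tbx18* above *Shox2*, while *Alx1* was below *Tbx18* in cKO replicates 2 and 3 and *Tbx18* below *Shox2* in cKO replicates 1 and 2.

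**Figure D1:**
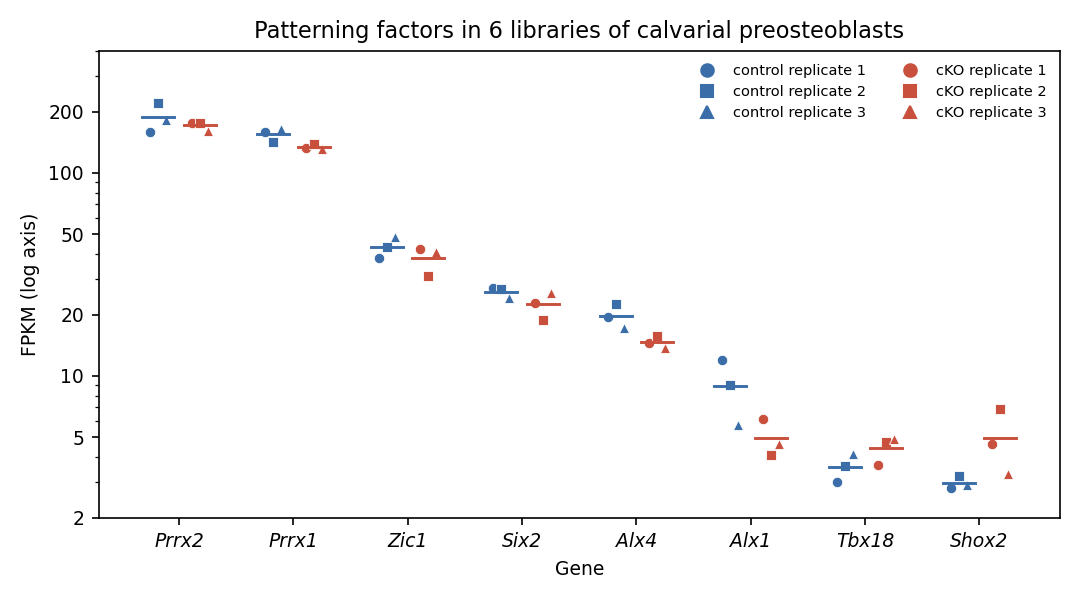
FPKM of each factor (log axis) in the 3 control libraries (blue) and the 3 cKO libraries (red), with marker shape giving the replicate and bars the group means. The *Prrx* genes sit at 131.58 FPKM or more in every library, *Tbx18* and *Shox2* below 7, and the 3 cKO points of *Alx4* lie under its 3 control points.

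Between the groups, 0 of the 8 factors passed an adjusted p of 0.05 in limma's test of log2(FPKM + 1) over the 11590 rows tested, and 0 (0%) of all rows did. At an unadjusted p under 0.05, 4 of the 8 differed, against 13.1% of all tested rows. *Alx1*, *Alx4* and *Prrx1* were lower in cKO libraries, the direction of 7.76% of rows, and *Shox2* was higher, the direction of 5.37% of rows. The groups were fully separated for 3 of the 8 (*Prrx1*, *Alx4* and *Shox2*), against 18.3% of rows. Over the 8 factors, 6 had a lower and 2 a higher estimate, and the median log2 fold change was -0.20, where that of all tested rows was -0.02. Without cKO replicate 2, 2 of the 8 (*Alx4* and *Prrx1*) had an unadjusted p under 0.05, against 8.31% of rows. Without control replicate 1 it was 1 of the 8 (*Alx4*), and without control replicate 2 it was 2 (*Prrx1* and *Alx4*), each against 8.02% of rows. The members were chosen with results of these data known, so the counts describe these genes and no test was made over them.

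PRRX1 and PRRX2 mark skeletogenic mesenchyme of the limb bud and face and act partly in each other's place. *Prrx1* was at 159.14, 142.19 and 165.31 FPKM in control replicates 1, 2 and 3 and at 132.33, 139.48 and 131.58 in the cKO libraries. Every cKO value lay below every control value, although the nearest pair differed by little. The means were 155.5 ± 12.0 (SD, n = 3) and 134.5 ± 4.36 (SD, n = 3), a ratio of 0.864, with a log2 fold change of -0.21 (95% interval -0.39 to -0.03, adjusted p = 0.340 from limma).

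*Prrx2* was at 159.49, 221.81 and 182.63 FPKM in control and at 177.01, 176.55 and 160.59 in cKO libraries, and the groups overlapped. Control replicate 2 was the highest library for *Prrx2* and the lowest control for *Prrx1*. The log2 fold change was -0.12 (95% interval -0.41 to 0.17, adjusted p = 0.682 from limma), and it was 0.00 without control replicate 2. Within libraries, the ratio of *Prrx1* to *Prrx2*, which does not depend on scaling between libraries, was 0.998, 0.641 and 0.905 in control and 0.748, 0.790 and 0.819 in cKO libraries. The cKO ratios lay inside the control range (two-sided exact permutation p = 0.8, adjusted 0.8 over 2 ratios, with 0.1 the smallest that 3 against 3 allow).

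ALX1 and ALX4 act in the mesenchyme of the upper face and the frontal and parietal region. *Alx4* was at 19.61, 22.53 and 17.32 FPKM in control and at 14.57, 15.76 and 13.8 in cKO libraries, with no overlap. Its means were 19.8 ± 2.61 (SD, n = 3) and 14.7 ± 0.987 (SD, n = 3), a ratio of 0.742 and a log2 fold change of -0.40 (95% interval -0.65 to -0.15, unadjusted p = 0.00635, adjusted p = 0.312 from limma). It ranked 205 of the 11590 rows by unadjusted p, and that p stayed under 0.05 in all 14 alternatives tried, including those that omit 1 library. The 3′ part of *Alx4* overlaps *Ext2* on the opposite strand, over 20312 bases that include 6355 of its exonic bases. *Ext2* was at 66.7 to 74.7 FPKM over the 6 libraries with a log2 fold change of -0.05, and the strand setting of the counting is not given in the sources used here.

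*Alx1* was at 11.94, 8.99 and 5.76 FPKM in control and at 6.12, 4.06 and 4.62 in cKO libraries. Control replicate 3 fell inside the cKO range, and the other 2 controls lay above it. The means were 8.90 ± 3.09 (SD, n = 3) and 4.93 ± 1.07 (SD, n = 3), a ratio of 0.555 and the lowest log2 fold change of the 8 at -0.70 (95% interval -1.28 to -0.13, adjusted p = 0.321 from limma). It was also the least even of the 8 within groups, with a within-group SD of 0.38 on the log2 scale, above that of 96.5% of tested rows. The log2 fold change was -0.48 without control replicate 1 and -0.95 without control replicate 3. In RefSeq, the model *Gm34298* overlaps the start of *Alx1* and was at 2.8, 2.66 and 1.55 FPKM in control and 1.41, 0.89 and 0.87 in cKO libraries, so both rows were lower in cKO libraries, and their reads may be shared. The ratio of *Alx4* to *Alx1* was 1.64, 2.51 and 3.01 in control and 2.38, 3.88 and 2.99 in cKO libraries, and these overlapped (two-sided exact permutation p = 0.5, adjusted 0.8 over 2 ratios).

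**Figure D2:**
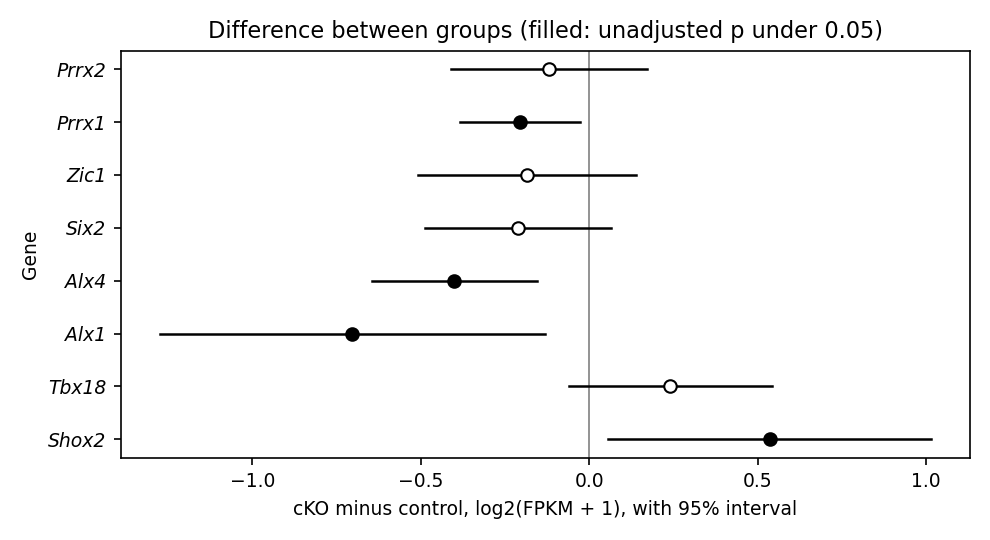
Difference between cKO and control libraries on the log2(FPKM + 1) scale for each factor, with the 95% interval from limma and filled points for an unadjusted p under 0.05. The intervals of *Alx1*, *Alx4* and *Prrx1* lie below 0 and that of *Shox2* lies above it, before adjustment for the 11590 rows tested.

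SHOX2 is a homeodomain factor of the proximal limb, the palate and the sinoatrial node. *Shox2* was at 2.79, 3.21 and 2.91 FPKM in control and at 4.62, 6.86 and 3.3 in cKO libraries. All cKO values lay above all controls, but cKO replicate 3 exceeded the highest control only narrowly, and the cKO libraries differed among themselves far more than the controls. The means were 2.97 ± 0.216 (SD, n = 3) and 4.93 ± 1.80 (SD, n = 3), a ratio of 1.66 and a log2 fold change of 0.54 (95% interval 0.06 to 1.01, adjusted p = 0.347 from limma). *Shox2* is among the genes that the study itself displays as differing in these libraries, so this difference is not independent evidence.

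The highest *Shox2* value came from cKO replicate 2, the library with the jaw and lower face factors. *Dlx5* and *Dlx6*, which specify the lower jaw, were at 13.4 and 7.18 FPKM in that library and at no more than 9.53 and 3.18 in the others. Without it, the log2 fold change of *Shox2* was 0.31 (adjusted p = 0.598 from limma, unadjusted p = 0.0520), and without cKO replicate 3 it was 0.74. In cKO replicate 1, which held the second highest value of *Shox2*, *Barx1* was at 0.15 and *Dlx6* at 1.55. The part of cells of another position in the *Shox2* difference was not tested. *Shox2* overlaps the start of *Rsrc1*, on the other strand, over 382 bases, and *Rsrc1* was at 16.7 to 19.4 FPKM with a log2 fold change of 0.01.

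**Figure D3:**
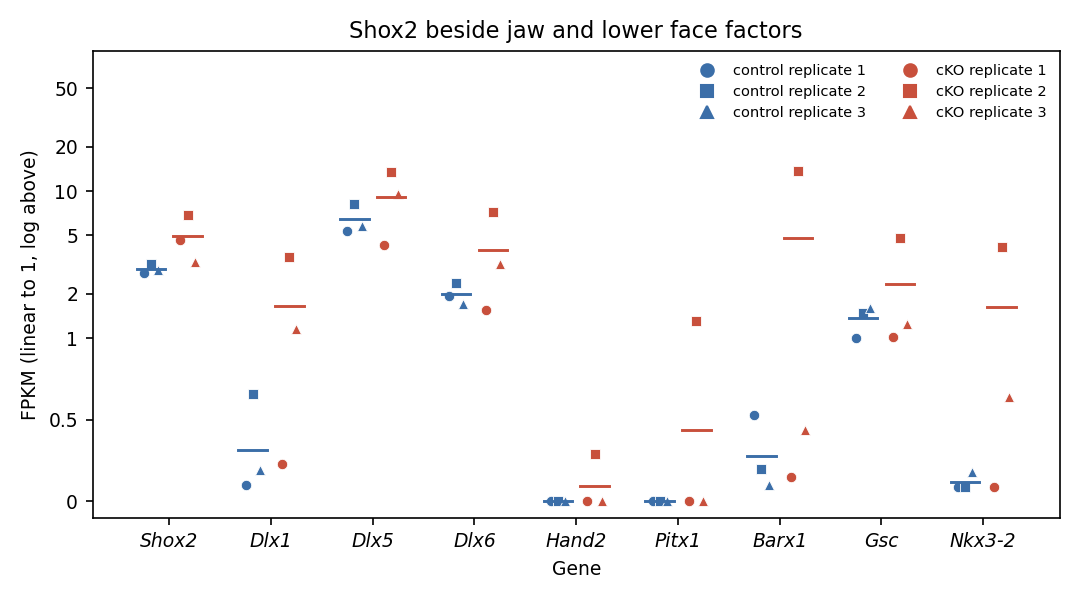
FPKM of *Shox2* and of 8 jaw and lower face factors in each library (axis linear to 1 FPKM and logarithmic above), with bars for group means. The square for cKO replicate 2 is the highest point for each gene shown, and for *Shox2* the circle of cKO replicate 1 also lies above the controls.

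SIX2 is known for keeping progenitors of the kidney and the frontonasal skeleton undifferentiated. Like each of the 8 factors, *Six2* did not pass the adjusted test. *Six2* was at 27.21, 26.82 and 24.15 FPKM in control and at 22.92, 18.87 and 25.73 in cKO libraries, with cKO replicate 3 inside the control range. The log2 fold change was -0.21 (95% interval -0.49 to 0.06, adjusted p = 0.468 from limma) and -0.10 without cKO replicate 2, its lowest library.

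ZIC1 is found in dorsal neural tissue, meninges and the developing coronal suture. *Zic1* was at 38.27, 43.09 and 48.41 FPKM in control and at 42.3, 31.23 and 40.71 in cKO libraries. The groups overlapped, and cKO replicate 2 was again the lowest library. The log2 fold change of -0.19 (95% interval -0.51 to 0.14, adjusted p = 0.576 from limma) was -0.05 without that library. *Zic1* overlaps *Zic4* on the opposite strand over 3398 bases, and reads there cannot be told apart without strand.

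TBX18 acts in somites and limb mesenchyme and marks the mural cells around blood vessels. *Tbx18* was at 3, 3.6 and 4.13 FPKM in control and at 3.63, 4.71 and 4.89 in cKO libraries. Its cKO replicate 1 lay inside the control range and the other 2 above it. The log2 fold change was 0.24 (95% interval -0.06 to 0.54, adjusted p = 0.453 from limma). Of 7 markers of mural cells, the pericytes and smooth muscle around vessels, 6 were in the table. They summed to 113 to 120 FPKM in control and 114 to 138 in cKO libraries, mostly *Pdgfrb*. Of the 4 tested, all had a higher estimate, and 1 (*Abcc9*) had an unadjusted p under 0.05, against 5.37% of all tested rows. *Rgs5* was too low to be tested and went the other way. It was at 0.58, 0.46 and 0.59 in control and 0.15, 0.27 and 0.27 in cKO libraries.

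**Figure D4:**
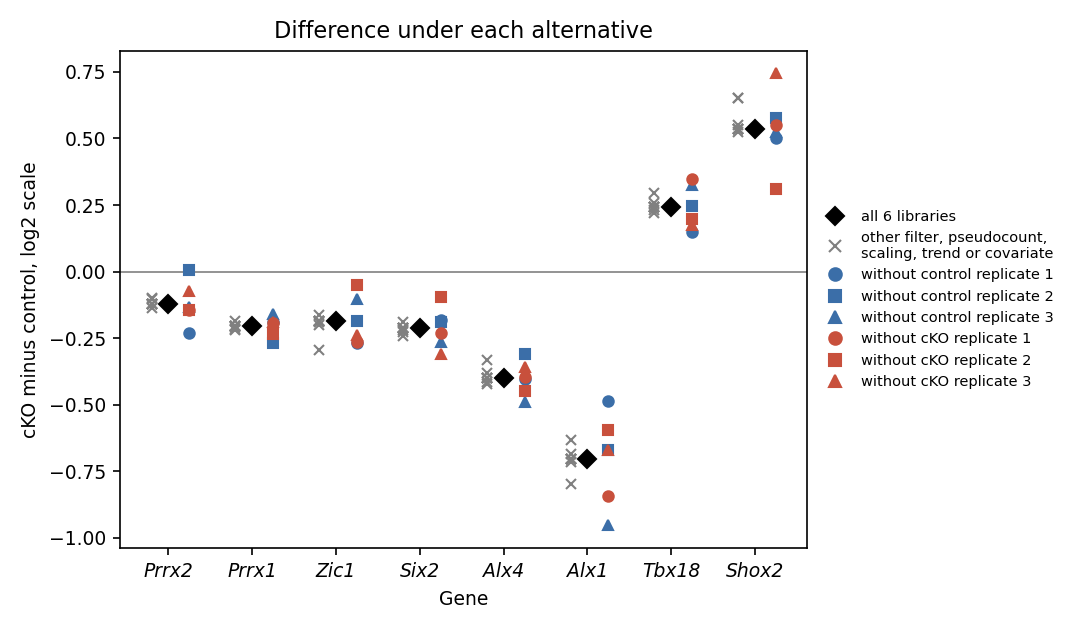
Difference between cKO and control libraries (log2 scale) for each factor with all 6 libraries (diamonds), under another filter, pseudocount, scaling, variance trend or covariate (crosses) and with each library left out (coloured symbols). The sign is kept in all 14 alternatives for 7 factors and in 13 of 14 for *Prrx2*, and *Alx1* and *Shox2* move most when a library is left out.

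Other genes of these families and of skull and limb patterning were taken from lists set with earlier results of the series known. Of 16 relatives of the 8 factors, 12 were in the table and 8 were tested, and 0 passed the adjusted test in limma. *Tbx15*, a T-box factor of the skull and limb girdles, was the most abundant, at a mean of 25.2 FPKM and with a log2 fold change of 0.02 (adjusted p = 0.962 from limma). At an unadjusted p under 0.05, 3 of the 8 relatives were lower in cKO libraries, against 7.76% of all tested rows, and 0 were higher, against 5.37%. All 3 were of the ZIC family. *Zic2* was at 11.37, 15.99 and 12.53 in control and 10.1, 8.58 and 10.63 in cKO libraries (log2 fold change -0.40, adjusted p = 0.317). *Zic5* had a log2 fold change of -0.37 (adjusted p = 0.312) and *Zic4* of -0.32 (adjusted p = 0.321, all from limma). The groups did not overlap for these 3, as for 18.3% of all tested rows, and they did for *Zic1*. Without cKO replicate 2, 1 of the 8 relatives was lower at an unadjusted p under 0.05, where 8.31% of all tested rows had such a p in either direction.

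Of 24 other transcription factors of skull and suture mesenchyme, all were in the table and 20 were tested. At an unadjusted p under 0.05, 7 of the 20 were lower in cKO libraries, against 7.76% of all tested rows, and 0 were higher, against 5.37%. None of the 20 passed the adjusted test. *Twist1*, a basic helix-loop-helix factor that keeps sutures open, was the most abundant at a mean of 76.0 FPKM, with a log2 fold change of -0.19 (adjusted p = 0.455 from limma). *Msx1* (log2 fold change -0.68, adjusted p = 0.312) and *Msx2* (-0.62, adjusted p = 0.321, both from limma), homeobox factors of the growing calvaria, are also shown by the study as differing in these libraries. *Bcl11b*, a zinc-finger factor of the sutures, had a log2 fold change of -0.34 and *Sp7*, the osteoblast factor osterix, of -0.48 (adjusted p = 0.312 for both from limma). *En1* and *Lmx1b*, named after their values were seen, were also among the 7. The median log2 fold change of the 20 was -0.16, and the number lower was 5 to 8 with 1 library omitted. The number higher was 2 without cKO replicate 1 and 0 without any one of the other 5 libraries. Of all tested rows, 7.35% to 21.2% had an unadjusted p under 0.05 in either direction in those fits. The highest share was that without cKO replicate 1.

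Of 17 transcription factors of limb mesenchyme, 16 were in the table and 9 were tested, with 7 higher and 2 lower estimates and a median log2 fold change of 0.18. No test was made between this list and the others. At an unadjusted p under 0.05, 2 of the 9 were higher in cKO libraries, against 5.37% of all tested rows, and 0 were lower, against 7.76%. None of the 9 passed the adjusted test in limma. *Tbx3*, a T-box repressor, was at 0.93, 1 and 0.93 FPKM in control and 1.27, 1.4 and 1.31 in cKO libraries (log2 fold change 0.25, adjusted p = 0.312 from limma). *Meis1*, a homeobox factor of the proximal limb, had a log2 fold change of 0.38 (adjusted p = 0.382 from limma), with overlapping groups. *Osr1* and *Irx3* were the most abundant at means of 21.6 and 18.3 FPKM, with log2 fold changes of 0.15 and -0.09. *Tbx5*, which marks the forelimb, was listed at 0 in 5 libraries and at 0.02 in cKO replicate 3. The number higher at an unadjusted p under 0.05 was 4 without control replicate 3 and 4 without cKO replicate 1. It was 1 without any one of the other 4 libraries, and 1 was lower without cKO replicate 2. In either direction, 13.7% of all tested rows had such a p without control replicate 3 and 21.2% without cKO replicate 1. Without any one of the other 4 libraries it was 7.35% to 8.31% of rows.

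SIX2 needs EYA partners to activate transcription. Of the 6 EYA and DACH genes, 4 were tested, and *Eya2*, the most abundant at 10.3 FPKM, had a log2 fold change of -0.42 with no overlap between the groups (adjusted p = 0.312 from limma). *Eya3* was nearly level at -0.03, and *Eya4* and *Eya1* had log2 fold changes of 0.20 and 0.17 (adjusted p = 0.525 and 0.655 from limma).

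**Figure D5:**
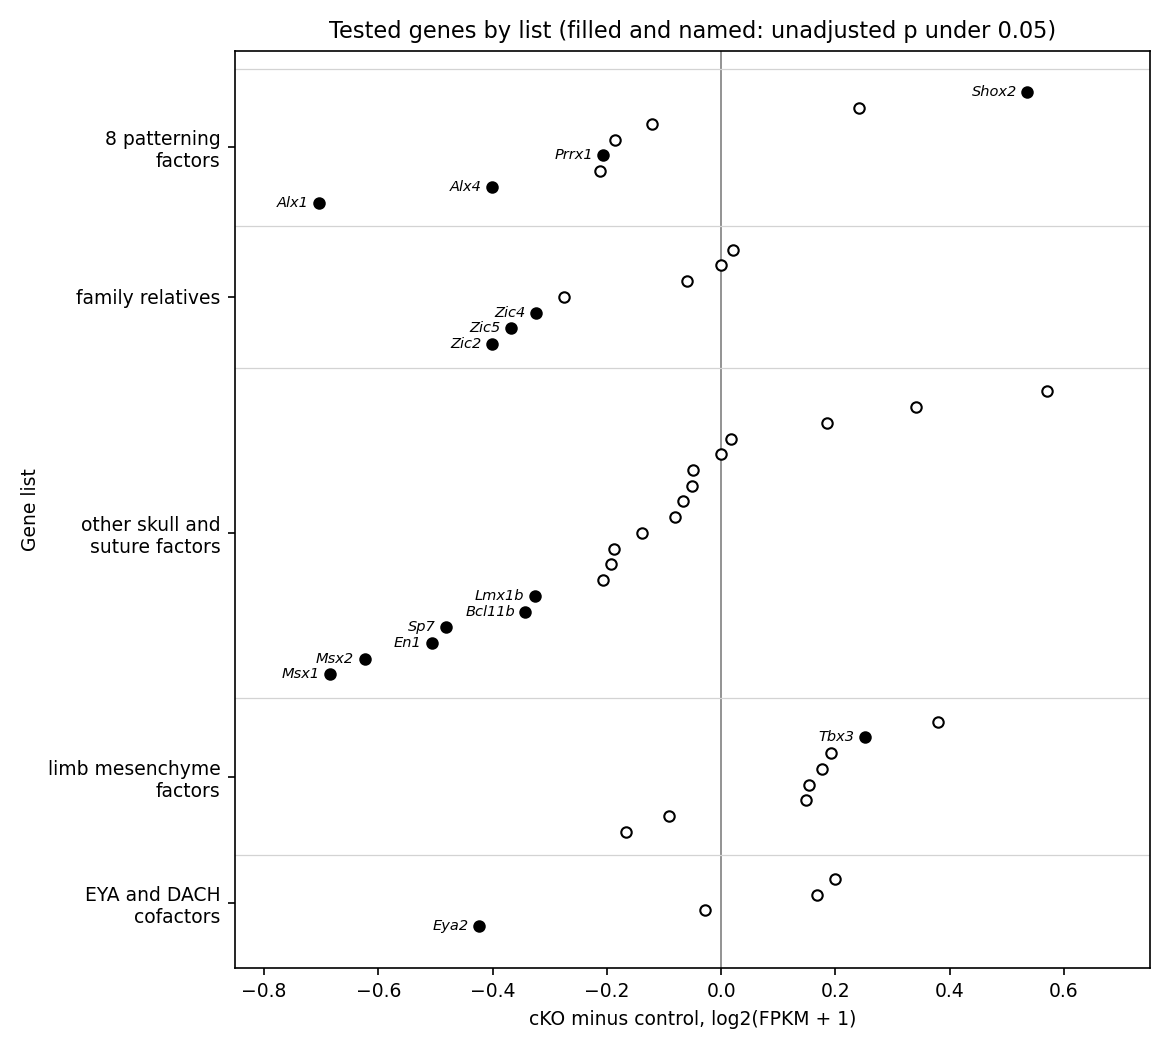
Difference between cKO and control libraries on the log2(FPKM + 1) scale for the tested genes of the 5 lists that are reported here, 1 point per gene, filled and named where the unadjusted p was under 0.05. Named points of the skull and suture list and of the ZIC relatives lie below 0, and that of the limb list above it.

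The genes whose pattern over the 6 libraries was nearest to a factor were sought among all tested rows, by the root mean square difference of centred log2(FPKM + 1) values, for the 6 factors that spanned at least 0.5 on that scale. With 6 libraries and 11590 rows, some genes come close by number alone, so these are descriptions. *Shox2* was nearest to *Sbspon* (0.08), at 1.88, 2.03 and 2.38 FPKM in control and 3.24, 5.09 and 2.19 in cKO libraries, and to *Medag* (0.09). *Alx1* was nearest to *Gm46156* (0.10) and *LOC115487803* (0.12), and 1 row in all lay within 0.1 of it. *Alx4* was nearest to *Pamr1* and *Mtfr2* (0.07 for both), with 40 rows within 0.1. *Zic1* was nearest to *Adam12* (0.06) and *Dock1* (0.07), *Six2* to *Jakmip2* and *Nolc1* (0.05 for both), and *Tbx18* to *Ap5b1* and *Syt11* (0.04 for both), with 227 rows within 0.1 of *Tbx18*.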

How the data were processed

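Poly(A) RNA of the 6 libraries was sequenced as 150 bp paired-end reads, which the authors mapped with HISAT2 and then normalised, with GRCm38 named as the build in the submitters' processing notes. The authors deposited FPKM to 2 decimals, 1 value for each symbol in each library, and the program that computed it is not given in the sources used here. All columns were used.

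FPKM is not a count, so log2(FPKM + 1) was compared by the moderated two-sided test of limma (version 3.58.1, R version 4.3.3), with p-values adjusted by the method of Benjamini and Hochberg over 11590 rows. These are the rows, of 17001, that reached 1 FPKM in 3 or more libraries. Fold changes on this scale understate the change of low genes, and intervals are at 95%. The fit was tested on simulated data. Alternatives were a pseudocount of 0.1, 2 other filters, a variance trend, 2 scalings, a term for the replicate number, a term for Y-linked expression, and fits that omit 1 library. Unadjusted p-values are given as descriptions.

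The 8 factors, the gene lists, the filter and the pseudocount were chosen with earlier results of these data known. The jaw and lower face list was added after seeing the values. Named genes were the 8 factors, *Nell2*, the 2 most abundant and the 3 lowest in unadjusted p of each list, and the 2 nearest in pattern to each factor spanning at least 0.5 (log2). Some genes of the lists enter the counts and are not reported here by name.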

Additional observations from a re-analysis of the deposited data

How the results depend on the processing

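The sign of the difference held in all 14 alternatives for 7 of the 8 factors, and for *Prrx2* in 13, with 0.00453 without control replicate 2 and -0.23 to 0.00453 over the libraries left out. The lowest adjusted p of any factor in any of them was 0.148. Genes with an adjusted p under 0.05 numbered 0 to 324 with 1 library left out (324 without cKO replicate 1, 2 without control replicate 3) and 0 in every other alternative. At an unadjusted p under 0.05, 1521 genes became 852 to 2461 with 1 library left out, or 7.35% to 21.2% of rows in place of 13.1%. The factors numbered 1 to 3 in place of 4 in those fits. Factors whose groups do not overlap numbered 3 to 6 in place of 3. Fewer libraries overlap less often, and the share of all rows was not computed for these fits, so this count is not read further. The deviations of same-numbered libraries from their group means correlated at 0.0314, -0.166 and 0.21, and those of differently numbered libraries at -0.272 to 0.275. These values do not show a pairing by number, and with 3 libraries per group they cannot exclude one. With the replicate block the factors with an unadjusted p under 0.05 numbered 4 but were not the same 4: *Prrx1* dropped out (unadjusted p = 0.0649) and *Tbx18* came in (unadjusted p = 0.0193), both from limma. With the term for Y-linked expression *Alx1* dropped out (unadjusted p = 0.0515) and *Zic1* came in (unadjusted p = 0.0131), and without a filter on low values *Shox2* dropped out (unadjusted p = 0.0520), all from limma. Counts for the other lists with a library left out were added after seeing the data. Rounding and unknown depth limit the low values of *Shox2* and *Tbx18*.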

Other observations

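The jaw and lower face factors of cKO replicate 2 were not matched by every gene of that kind. *Lhx6* was at 0.05 FPKM there and at 0 to 0.15 in the other 5 libraries, and *Lhx8* was at 2.15 against 0.77 to 1.57. *Dlx1* and *Dlx2* were at 3.54 and 4.01 in cKO replicate 2, at 1.16 and 2.51 in cKO replicate 3, and at no more than 0.66 and 1.63 in the other 4. This choice of genes followed from the values.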
